A study of Mus musculus with 9 samples.

Results

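The cartilage-type collagens examined here were Col2a1, Col9a1, Col9a2, Col9a3, Col10a1, Col11a1, Col11a2 and Col27a1. These 8 genes of the 55471 listed for each culture were chosen by name, as the genes that encode the chains of collagens II, IX, X, XI and XXVII, and all 8 passed the filter on low counts. RNA had been sequenced from 9 cultures of primary articular chondrocytes, the resident cells of joint cartilage, taken from the knee cartilage (tibial plateaus and femoral condyles) of wild-type mice on postnatal day 5. The Control group (3 cultures) received a control adenovirus, as the methods name it, the Ad-OSCAR group (3 cultures) an adenovirus encoding OSCAR, a cell-surface receptor for collagen, and the Ad-OSCAR + 5-ASA group (3 cultures) the same OSCAR virus followed by 10 µM 5-aminosalicylic acid (5-ASA), a small anti-inflammatory drug that the study examined as an OSCAR antagonist. The question behind the comparisons was what OSCAR overexpression did to chondrocyte transcripts and which of those effects 5-ASA changed.

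All 3 groups shared the virus infection and, in the methods, plates coated with COLpep, a collagen peptide that OSCAR binds. The sample annotations give a multiplicity of infection (MOI) of 400, 3 days of culture before a 2 h infection and 36 h before 5-ASA, whereas the methods give an MOI of 800, 2 days and 24 h with or without the drug. Neither source says whether the 3 cultures of a group came from separate mice, and p-values therefore measure the spread between these cultures, which may be technical. Library totals ranged from 19733448 to 28192740 estimated counts. Oscar, the gene carried by the OSCAR virus, had 3 to 4 counts per Control culture, 173445 to 187278 in Ad-OSCAR and 80766 to 94199 with 5-ASA. The cultures given that virus thus model a strong overexpression. The summed level of 10 chondrocyte markers was 5092 to 5792 CPM (counts scaled to the normalized library total) in Control, 343 to 348 in Ad-OSCAR and 362 to 379 with 5-ASA. In bulk RNA, fewer cells of a type and less RNA per cell cannot be told apart. Summed levels of 9 fibroblast and synovial markers were 706 to 733, 1224 to 1249 and 1165 to 1211 CPM, where Prg4, the lubricin of synovial and cartilage-surface cells, had 247 CPM in Control and 897 in Ad-OSCAR. The other 6 tested markers of that list fell with OSCAR, from -2.53 for Thy1 to -0.33 for Fap on the log2 scale (edgeR, adjusted p = 0.0377 for Fap), and 2 did not pass the filter. Those of 7 macrophage markers were 17.4 to 20.4, 36.6 to 37.2 and 30.0 to 31.5 CPM. Of these Cd14 (10.6 CPM in Control and 22.2 in Ad-OSCAR), Cd68 (1.99 and 8.21) and Lyz2 (3.55 and 4.77) rose, Mrc1 fell (1.81 and 1.02), and Csf1r had 0.770 and 0.548 CPM (edgeR, adjusted p = 0.233). The defining markers Ptprc (0.0334 and 0.0484 CPM) and Adgre1 (0 and 0.0476 CPM) did not pass the filter. The part of these shifts in the collagen results was not tested.

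Collagen II, a trimer of the Col2a1 chain, forms the main fibrils of cartilage. Collagen XI, built with the Col11a1 and Col11a2 chains, lies within these fibrils and limits their width, and collagen IX, built from the Col9a1, Col9a2 and Col9a3 chains, decorates their surface and links them to other matrix molecules. Collagen X (Col10a1) is the collagen of hypertrophic chondrocytes, the enlarged cells at the border to calcified cartilage and bone, and collagen XXVII (Col27a1) forms thin fibrils of its own in cartilage. Sox9, aided by Sox5 and Sox6, is the transcription factor known to drive the genes of collagens II, IX and XI.

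On the GRCm38 mouse genome, Col2a1 lies on the minus strand at chr15:97975602-98004695 and the other 7 genes on plus strands. These are Col9a1 at chr1:24177610-24252684, Col9a2 at chr4:121039385-121055322, Col9a3 at chr2:180597790-180622189, Col10a1 at chr10:34389981-34397085, Col11a1 at chr3:114030540-114220718, Col11a2 at chr17:34039437-34066685 and Col27a1 at chr4:63214004-63334991. Col9a3 overlaps Tcfl5 and Col10a1 overlaps Nt5dc1, both on the opposite strand. Their own counts were 96.8 to 217 and 164 to 274 per culture, and the strand setting of the counting was not stated, so for Col10a1, with 569 to 782 counts, reads of the 2 genes may not be fully separated. Col27a1 also contains Mir455, which had 0 counts.

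RefSeq promoter windows (GRCm38.p6) were at hand for 6 of the 8 genes, with both start sites of Col9a1. The 250 bases before the start are shown for Col9a1, whose mean transcript length did not overlap between the groups, for Col11a2, among the collagens with the largest fall after OSCAR, and for Col10a1, with the smallest. Capitals mark the motifs that were searched on both strands. These were the TATA box TATAAA, the GC box GGGCGG, and the SOX-type sites AACAAT and, as a second form, ACAAAG. A GC box on the minus strand reads CCGCCC. The marked matches did not overlap each other.
Col9a1 long form, chr1:24177360-24177609, plus strand: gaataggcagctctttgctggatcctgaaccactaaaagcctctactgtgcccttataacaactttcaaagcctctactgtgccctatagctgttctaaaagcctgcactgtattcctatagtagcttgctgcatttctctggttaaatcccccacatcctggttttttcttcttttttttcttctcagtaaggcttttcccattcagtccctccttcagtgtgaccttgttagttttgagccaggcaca
Col9a1 short form, chr1:24194953-24195202, plus strand: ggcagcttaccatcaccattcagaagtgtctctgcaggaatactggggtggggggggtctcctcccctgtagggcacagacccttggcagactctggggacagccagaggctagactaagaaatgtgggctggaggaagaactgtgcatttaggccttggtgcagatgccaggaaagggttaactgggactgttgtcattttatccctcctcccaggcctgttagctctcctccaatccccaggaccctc
Col11a2, chr17:34038888-34039137, plus strand: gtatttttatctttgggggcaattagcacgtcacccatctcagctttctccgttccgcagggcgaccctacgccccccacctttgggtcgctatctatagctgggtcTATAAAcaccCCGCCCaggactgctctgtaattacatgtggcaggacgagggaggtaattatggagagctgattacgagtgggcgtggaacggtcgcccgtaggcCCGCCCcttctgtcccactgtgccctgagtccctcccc
Col10a1, chr10:34389731-34389980, plus strand: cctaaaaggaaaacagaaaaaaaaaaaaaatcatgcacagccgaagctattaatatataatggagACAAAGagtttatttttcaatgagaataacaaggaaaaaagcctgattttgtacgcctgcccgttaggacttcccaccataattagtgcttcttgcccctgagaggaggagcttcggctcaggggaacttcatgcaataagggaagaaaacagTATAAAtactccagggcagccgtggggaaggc

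The windows had little in common. TATAAA occurred in 2 of the 6 genes, Col10a1 (beginning 32 bases before the start) and Col11a2 (143 bases before it), against 12.4% of all 32851 promoter windows of that length. GGGCGG occurred in 4 genes, Col9a2, Col11a1, Col11a2 and Col27a1 (32.7% of all windows). ACAAAG was found once, in Col10a1 (185 bases before the start, 16.5% of all windows), and AACAAT in 0 of the 6 genes (9.42% of all windows). Both Col9a1 windows held 0 of the 4 motifs. The GC content was 43.6% before the long and 56.0% before the short Col9a1 start, 57.6% for Col11a2 and 41.6% for Col10a1, and the median of all windows was 52.4%. A match describes letters only.

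In the Control cultures these collagens were abundant. Their level per transcript length is given in TPM (abundance corrected for transcript length and scaled to the library), which allows genes to be compared. Col2a1 led with 12071 ± 886 TPM (SD, n = 3, as for all means below), followed by Col11a1 at 1193 ± 81.0, Col9a1 at 543 ± 47.2 and Col11a2 at 257 ± 21.4 TPM. Col9a3 (125 ± 7.48 TPM) and Col9a2 (125 ± 18.8 TPM) overlapped. Col27a1 (99.5 ± 5.53 TPM) and Col10a1 (16.8 ± 0.481 TPM) came last, and all neighbours in this order other than Col9a3 and Col9a2 were separated in every culture.

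**Figure D1:**
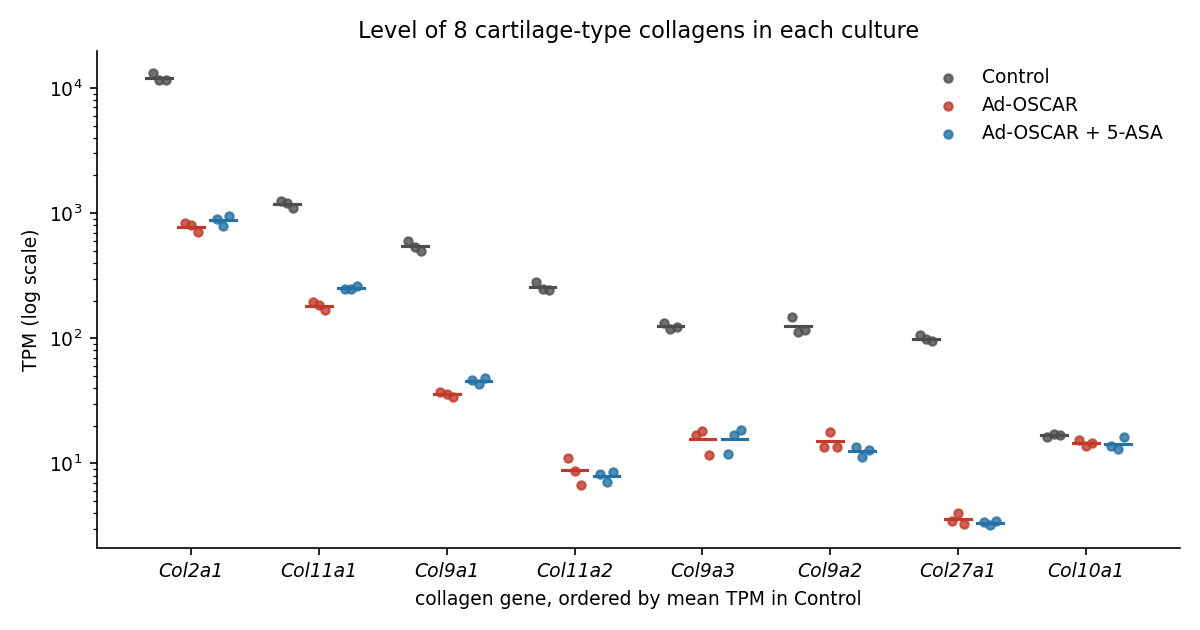
Level of each collagen gene in each culture, in TPM on a log axis, with 1 point per culture and a short line at the group mean. In all genes but Col10a1 the 3 Control cultures stand far above the other 6, as for Col2a1 with 11514 to 13093 TPM against 708 to 957.

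With OSCAR overexpression all 8 collagens fell, 7 of them by 6.72-fold to 30.1-fold and Col10a1 by 1.18-fold. Of all 15362 genes tested, 32.2% passed the same test (edgeR's quasi-likelihood test, Benjamini-Hochberg adjusted p below 0.05) in the lower direction. Past the study's cut-off for OSCAR (log2 fold change beyond 1.5 and adjusted p below 0.05) there were 7 of 8, all but Col10a1, against 5.39% of all genes lower. The median log2 fold change of the 8 genes was -3.56, beside 0.02 over all genes tested.

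Among the fibril-forming collagens, Col2a1 had 779568, 778281 and 620553 counts in the Control cultures and 66676, 55289 and 53526 in the Ad-OSCAR cultures. In TPM this was 13093, 11514 and 11607 against 831, 797 and 708. The highest Ad-OSCAR culture was far below the lowest Control culture, and the log2 fold change was -3.97 (SE 0.07, edgeR, adjusted p = 2.99e-18), or 15.7-fold lower. Col2a1 alone took 3.24% ± 0.224 of all counts in Control and 0.226% ± 0.0183 in Ad-OSCAR. The 8 genes together took 3.98% ± 0.269 and 0.324% ± 0.0234. These shares did not overlap (exact permutation test, two-sided, p = 0.1, the smallest that 3 against 3 cultures allow, and 0.12 adjusted over 6 comparisons).

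The chains of collagen XI fell unequally. Col11a1 had 1260, 1215 and 1103 TPM in Control and 194, 183 and 170 TPM in Ad-OSCAR. Its log2 fold change of -2.75 (SE 0.05, edgeR, adjusted p = 8.32e-18) was the smallest fall of the 7 genes past the study's cut-off. Col11a2 had 282, 248 and 242 TPM in Control and 11.1, 8.66 and 6.79 in Ad-OSCAR, and no cultures overlapped. It fell by 4.91 on the log2 scale (SE 0.09, edgeR, adjusted p = 5.49e-18), or 30.1-fold. Col27a1 had 106, 98.2 and 94.7 TPM against 3.48, 4.01 and 3.27, a log2 fold change of -4.90 (SE 0.09, edgeR, adjusted p = 1.89e-18).

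The chains of collagen IX also differed from each other in size of change. Col9a1 had 25545, 26184 and 19261 counts in Control and 1933, 1583 and 1658 in Ad-OSCAR, a log2 fold change of -4.11 (SE 0.07, edgeR, adjusted p = 5.39e-19). Its partners changed less. Col9a2 fell from 4261, 3967 and 2959 counts to 575, 530 and 479, a log2 fold change of -3.15 (SE 0.09, edgeR, adjusted p = 1.33e-15), and Col9a3 had a log2 fold change of -3.08 (SE 0.09, edgeR, adjusted p = 3.2e-15). The 95% interval of Col9a1 (-4.25 to -3.97) lay apart from those of Col9a2 (-3.34 to -2.96) and Col9a3 (-3.27 to -2.88).

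Col10a1 stood apart from the other 7 genes. It had 29.3, 30.7 and 30.1 CPM in Control and 26.5, 24.6 and 25.2 in Ad-OSCAR, so the groups did not overlap but lay close together. The log2 fold change was -0.24 (SE 0.07, 95% interval -0.38 to -0.10, edgeR, adjusted p = 0.00508). This call was lost when counts were scaled by the library total alone (log2 fold change -0.11, adjusted p = 0.157) and in TPM (limma on log2(TPM + 1), -0.20, adjusted p = 0.0702). As the other genes fell past it, Col10a1 moved in the order of TPM from last to a level overlapping Col9a3 and Col9a2, above Col11a2 and Col27a1.

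With 5-ASA, 3 of the 8 collagens were higher than in the untreated Ad-OSCAR cultures and 0 were lower, against 10.4% of all genes higher and 7.38% lower. These were Col11a1, Col9a1 and Col2a1, the 3 most abundant, and none changed beyond 1.5-fold. The study's cut-off for 5-ASA was a fold change beyond 1.5 and an unadjusted p below 0.05. The methods set it for 5-ASA-treated cultures against Control, and here it was applied against untreated Ad-OSCAR. There, 0 of 8 passed it by edgeR (3 of 8 at an unadjusted p below 0.05) and 0 of 8 by DESeq2. Of all genes, 4.15% passed it in either direction by edgeR. Without the first Ad-OSCAR culture 1 of 8, Col11a1 with a log2 fold change of 0.60, passed it. Against Control, 7 of 8 passed the same cut-off in every fit without 1 culture, all as lower. Oscar itself differed between the same groups, at 6665 ± 397 CPM in Ad-OSCAR and 3399 ± 404 CPM with 5-ASA (log2 fold change -0.97, edgeR, adjusted p = 1.76e-08). The part of the lower Oscar level in the collagen differences was not tested.

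Col11a1 changed most. Its CPM were 815, 794 and 735 in Ad-OSCAR and 1154, 1152 and 1169 with 5-ASA, with a gap between the groups wider than either group's range. The log2 fold change was 0.57 (SE 0.05, edgeR, adjusted p = 5.13e-07), or 1.48-fold. Col9a1 had 65.6, 64.9 and 60.3 CPM against 87.6, 80.6 and 87.3, again without overlap, and rose by 0.42 on the log2 scale (SE 0.06, edgeR, adjusted p = 8.79e-05). For Col2a1 the CPM were 2262, 2267 and 1947 in Ad-OSCAR and 2703, 2373 and 2797 with 5-ASA, a log2 fold change of 0.28 (SE 0.06, edgeR, adjusted p = 0.00477). In TPM the Col2a1 groups overlapped (708 to 831 and 793 to 957), and the call was lost (limma on log2(TPM + 1), log2 fold change 0.18, adjusted p = 0.181).

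For the other 5 collagens no difference passed the test. The log2 fold changes with their 95% intervals were -0.04 (-0.25 to 0.17) for Col9a2, 0.04 (-0.18 to 0.26) for Col9a3, 0.07 (-0.07 to 0.21) for Col10a1, -0.10 (-0.31 to 0.10) for Col11a2 and 0.12 (-0.09 to 0.33) for Col27a1, and the lowest of their adjusted p-values was 0.458 (edgeR). These intervals leave room for small changes of either sign. Col11a2 had 742, 621 and 542 counts in Ad-OSCAR and 590, 535 and 591 with 5-ASA, and Col27a1 had 304, 301 and 244 against 280, 326 and 291, so the groups overlapped for both.

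**Figure D2:**
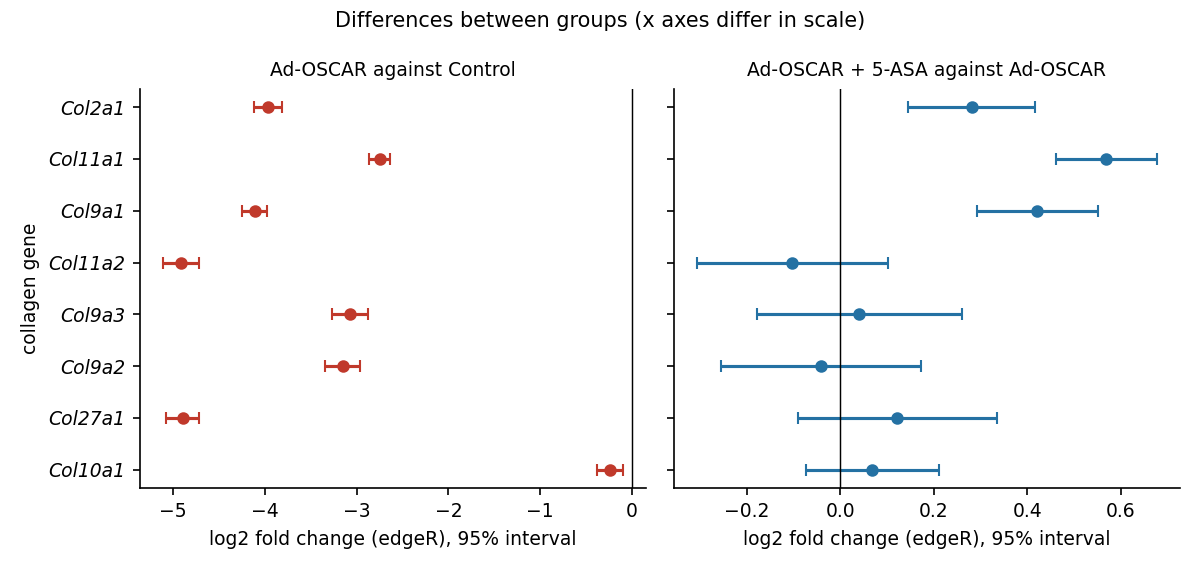
Log2 fold changes of the 8 collagens with 95% intervals from edgeR, for Ad-OSCAR against Control (left) and for 5-ASA against untreated Ad-OSCAR (right, on a wider scale). All intervals on the left lie below 0, from -4.91 for Col11a2 to -0.24 for Col10a1, and on the right only those of Col2a1, Col11a1 and Col9a1 lie above 0.

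The treated cultures stayed far from Control. All 8 collagens were lower in Ad-OSCAR + 5-ASA than in Control, against 31.8% of all genes lower. The log2 fold changes were -3.69 for Col2a1, -3.69 for Col9a1, -3.19 for Col9a2, -3.03 for Col9a3, -2.18 for Col11a1, -5.01 for Col11a2 and -4.77 for Col27a1, with adjusted p-values of at most 4.5e-15 (edgeR). For Col10a1 the value was -0.17 (edgeR, adjusted p = 0.0377), a call that DESeq2 (adjusted p = 0.0776) and 5 of the 9 fits without 1 culture did not make. Those 5 left out Control culture 1 (-0.19), 2 (-0.15) or 3 (-0.17), or 5-ASA culture 1 (-0.15) or 2 (-0.11). Col11a1 in the treated cultures was still 4.53-fold below Control. This comparison shares its cultures with the other 2.

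Because the chains fell unequally, the make-up of the collagen transcripts differed between groups. Of the summed TPM of collagen XI, Col11a2 made up 18.3%, 16.9% and 18.0% in the Control cultures, 5.42%, 4.52% and 3.85% in Ad-OSCAR and 3.20%, 2.80% and 3.19% with 5-ASA. The 3 groups did not overlap. Collagen XI TPM per 100 Col2a1 TPM were 11.8, 12.7 and 11.6 in Control, 24.6, 24.1 and 24.9 in Ad-OSCAR and 28.5, 32.1 and 28.2 with 5-ASA, so that relative to collagen II the 2 XI chains together were highest in the treated cultures. Col9a1 made up 68.4% ± 1.07 of the collagen IX TPM in Control, 54.1% ± 3.83 in Ad-OSCAR and 61.8% ± 2.36 with 5-ASA. Each of these differences gave p = 0.1 (exact permutation test, two-sided, 0.12 adjusted over 18 comparisons), the smallest that 3 against 3 allow. The collagen IX total per 100 Col2a1 TPM was 6.57 ± 0.172, 8.52 ± 0.451 and 8.42 ± 0.491, and did not differ with 5-ASA beyond the spread (exact permutation p = 0.7).

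**Figure D3:**
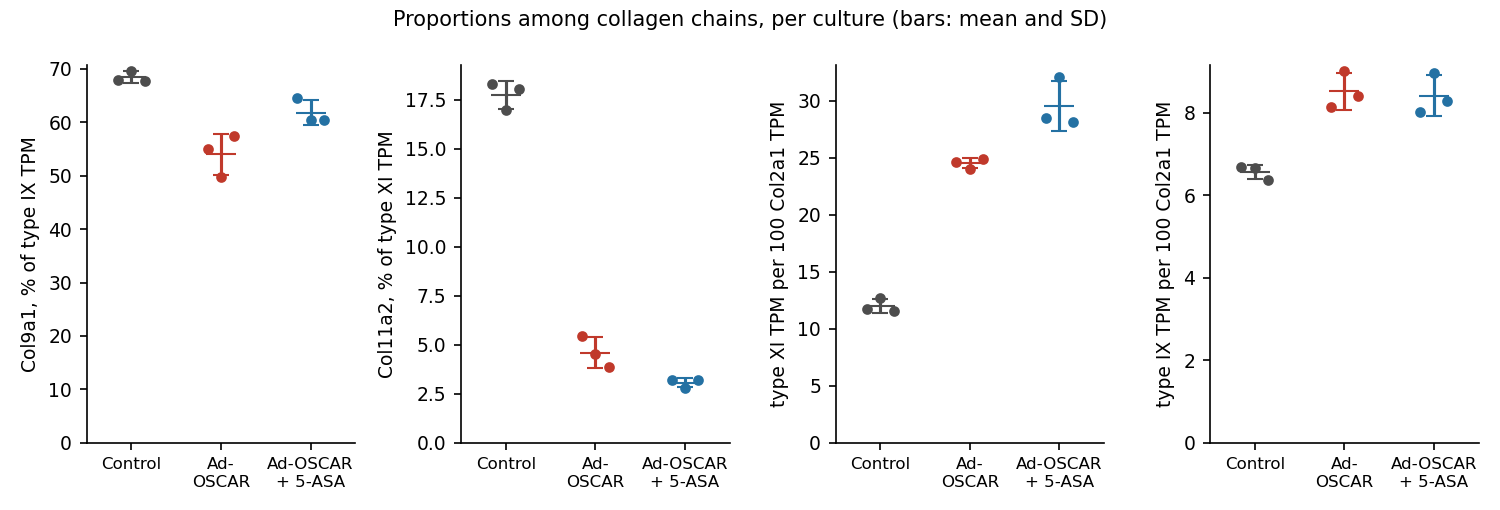
Proportions among collagen chains in each culture (points), with group mean and SD, each axis starting at 0. The mean Col11a2 share of collagen XI is 17.8% in Control, 4.60% in Ad-OSCAR and 3.06% with 5-ASA, and collagen XI per 100 Col2a1 TPM is 12.0, 24.5 and 29.6.

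The transcripts of Col9a1 were also shorter on average in the Ad-OSCAR cultures. The deposited gene length is the mean over a gene's transcripts, weighted by their estimated abundance. For Col9a1 it was 3521, 3529 and 3522 bases in Control, 3177, 3166 and 3193 in Ad-OSCAR and 3116, 3114 and 3117 with 5-ASA. No culture of 1 group overlapped another group (exact permutation p = 0.1 in all 3 comparisons, the smallest possible, 0.35 adjusted over 21). GENCODE lists a long coding transcript of 3834 bases and 38 exons from the first of the start sites shown, a short one of 3059 bases and 32 exons that starts inside the gene at position 24195187, and shorter non-coding ones of 898 and 806 bases. The short form lacks the large globular domain at the amino end of the chain. If only the 2 coding transcripts were used, the long form would make up 59.6% to 60.7% in Control, 13.8% to 17.2% in Ad-OSCAR and 7.10% to 7.46% with 5-ASA. Allowing for the non-coding transcripts the long share could be as high as 89.9%, 78.8% and 76.3% in the 3 groups, so the lengths alone do not fix the shares.

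**Figure D4:**
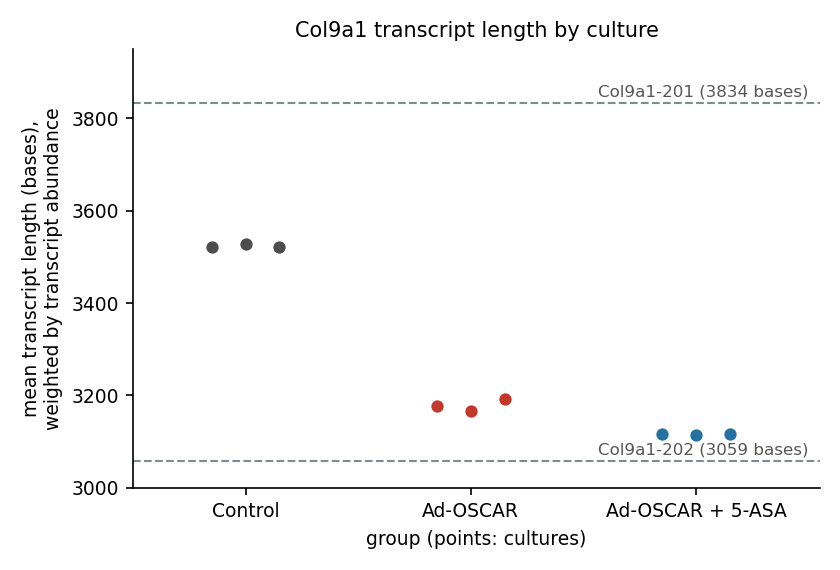
Abundance-weighted mean length of Col9a1 transcripts in each culture (points, in bases, on an axis that does not start at 0), with dashed lines at the 2 annotated coding transcripts of 3834 and 3059 bases. Control lies near 3524 bases, Ad-OSCAR near 3179 and 5-ASA near 3116.

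Of the other genes with more than 1 transcript, Col2a1 had mean lengths of 4804 ± 15.0, 4843 ± 33.6 and 4858 ± 5.43 bases, in Control, Ad-OSCAR and 5-ASA. GENCODE lists for it a coding transcript of 5104 bases and 54 exons and another of 4862 bases and 53 exons, beside shorter non-coding ones, so the means do not fix the share of either. The groups overlapped between Control and Ad-OSCAR (exact permutation p = 0.2) and between 5-ASA and Ad-OSCAR (exact permutation p = 0.8), but not between 5-ASA and Control (exact permutation p = 0.1, 0.35 adjusted over 21). The lengths of Col9a2, Col9a3 and Col11a1 overlapped in all 3 comparisons. Those of Col11a2 did so except between 5-ASA and Control, and those of Col27a1 except between Control (5349 ± 76.6 bases) and Ad-OSCAR (5087 ± 253 bases). Col10a1 has 1 annotated transcript of 3130 bases.

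Collagens of other types moved in both directions. Of 36 other collagen genes 31 were tested, and with OSCAR 15 were lower and 10 higher (48.4% and 32.3%, beside 32.2% and 32.7% of all genes), with a median log2 fold change of -0.01. The sign of this median changed with the scaling (0.12 with library totals alone). Among the 4 most abundant by the mean over all 9 cultures, the ranking used here for every list, Col5a2 (5448 to 9423 CPM, log2 fold change 0.79) and Col3a1 (0.72), which form fibrils in soft connective tissue, rose, and Col1a1 (-1.67), the main collagen of bone, and Col12a1 (-0.47), a fibril-associated collagen, fell. In Control alone Col1a2, the partner chain of Col1a1, stood above Col3a1 and Col12a1 at 4805 CPM, and it fell by 2.38 on the log2 scale. The collagen VI chains Col6a1 (-1.17), Col6a2 (-1.39) and Col6a3 (1281 to 642 CPM) also fell, as did Col16a1 (-1.01) and, from low levels, Col14a1 (-4.64) and Col15a1 (-4.58). Among the 10 that rose were Col8a1 (1.15), Col4a1 (0.62) and, from low levels, Col23a1 (2.30) and Col7a1 (1.36). The 7 named before these that fell, the risers just named, and Col5a1, Col5a3 and Col24a1 were singled out after their values were seen. The last 3 were taken as relatives of the XI chains and of Col27a1. Col5a1 fell (-0.96), Col5a3 rose (1.92), and Col24a1 had a log2 fold change of -0.01 (adjusted p = 0.973). With 5-ASA 13 of the 31 were higher and 0 lower, with a median of 0.16 beside 0.10 for the 8 cartilage-type genes, and the latter median was -0.01 in TPM.

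**Figure D5:**
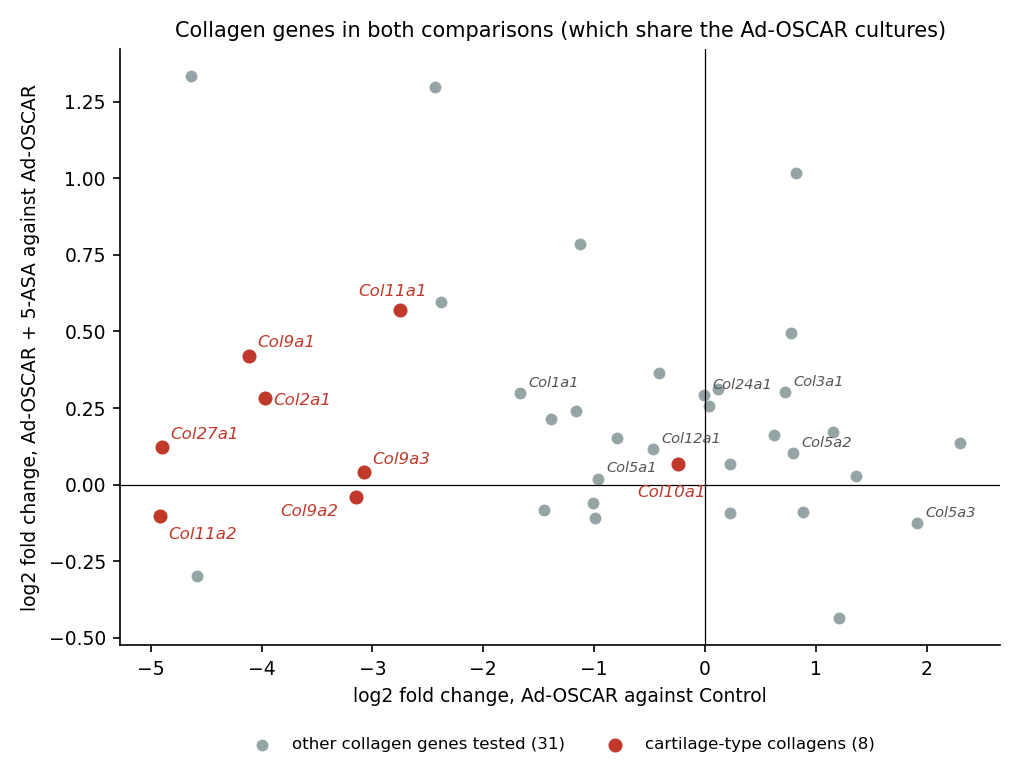
Log2 fold changes of the 8 cartilage-type collagens (red, named) and 31 other collagen genes (grey) for Ad-OSCAR against Control (horizontal) and 5-ASA against Ad-OSCAR (vertical). Both axes use the Ad-OSCAR cultures, so no correlation is read from them, and 7 of the 8 red points lie at -2.75 or lower, where 2 of the 31 grey points also lie.

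Genes that act with these collagens are given as counts beside all genes tested, of which 32.2% were lower and 32.7% higher with OSCAR and 7.38% lower and 10.4% higher with 5-ASA. Of 20 matrix partners, proteoglycans and linker proteins that lie among the fibrils, 17 were tested, 16 (94.1%) fell and 1, Dcn, rose (median log2 fold change -3.08). Acan, the main proteoglycan of cartilage, fell by 6.38 on the log2 scale, from 2321 ± 146 to 27.9 ± 1.39 CPM. Fmod, which binds collagen fibrils, had -2.62, Prelp -0.83, Bgn -0.68 and Dcn 1.10. With 5-ASA 7 of the 17 were higher and 0 lower, among them Prelp (0.53), Fmod (0.44), Bgn (0.39), Acan (0.27) and Dcn (0.20). The Acan and Dcn calls were lost in TPM.

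Of 20 transcription regulators of these genes 19 were tested, of which 11 (57.9%) fell and 6 (31.6%) rose with OSCAR, the latter share close to that of all genes. Sox9 went from 318 ± 28.5 to 38.1 ± 4.06 CPM (log2 fold change -3.06, edgeR, adjusted p = 1.93e-16) and Sox6 from 114 ± 1.70 to 46.5 ± 0.603 CPM (-1.30), whereas Sox5 rose from 888 to 1129 counts per Control culture to 2257 to 2743 in Ad-OSCAR (1.02). In Control Sox9 was the most abundant of the list, and over all 9 cultures the 4 most abundant were Trps1 (-0.37), Foxc1 (0.52), Arid5b (0.42) and Creb3l2 (-0.76). With 5-ASA 3 (15.8%) were higher and 1 (5.26%) lower. Sox9 had a log2 fold change of 0.24 (edgeR, adjusted p = 0.0414), Sox6 0.16 (edgeR, adjusted p = 0.0359) and Sox5 -0.16 (edgeR, adjusted p = 0.0172). All 3 calls were lost in TPM (limma on log2(TPM + 1), 0.14 with adjusted p = 0.304 for Sox9, 0.04 with 0.864 for Sox6 and -0.35 with 0.122 for Sox5). With library totals alone those of Sox9 (0.17, adjusted p = 0.116) and Sox6 (0.09, adjusted p = 0.232) were lost, and that of Sox6 also with no filter on low counts (0.16) and with only the groups compared (0.15). Each of the 3 was lost as well when 1 of several cultures was left out. For Sox9 these were Ad-OSCAR culture 1 (0.26) or 3 (0.15, adjusted p = 0.212) and 5-ASA culture 1 (0.23) or 3 (0.21). For Sox6 they were Control culture 1 (0.16), any Ad-OSCAR culture (0.15 to 0.16) and 5-ASA culture 2 (0.12, adjusted p = 0.139) or 3 (0.15). For Sox5 they were Ad-OSCAR culture 1 (-0.17) or 3 (-0.15) and 5-ASA culture 1 (-0.14, adjusted p = 0.0992).

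Of 34 genes for making and crosslinking procollagen, 31 (91.2%) fell and 2 (5.88%) rose with OSCAR (median -0.93). Serpinh1, a chaperone that binds procollagen, fell by 1.37 on the log2 scale, and P4hb, a subunit of prolyl 4-hydroxylase, by 0.89. The crosslinking oxidase Lox rose by 0.29. Loxl2, of the same family, had 0.10 (edgeR, adjusted p = 0.0415). This call was lost with RLE scaling (0.09), with no filter on low counts (0.10) and in TPM (0.11). It was also lost without Control culture 1 (0.08) or 2 (0.09), Ad-OSCAR culture 1 or 3 (0.09 each) or 5-ASA culture 1 (0.10). All 7 tested of 9 collagen-cleaving proteases rose (median 1.21), led in level by Mmp3 (2159 to 11076 CPM, 2.36) and Mmp13 (3496 to 8108 CPM, 1.21), the collagenase that cuts collagen II, and followed by Mmp14 (0.65) and Mmp2 (0.54). With 5-ASA 3 of these 7 were higher and 0 lower, Mmp3 at 0.25, Mmp2 at 0.37 and Mmp9 at 0.61, the last named to complete the count. Mmp13 had 0.12 (edgeR, adjusted p = 0.0566). It passed the test by DESeq2 (adjusted p = 0.0272), with RLE scaling (0.13) and with no filter on low counts (0.12). It also passed without Control culture 2 (0.12) or 5-ASA culture 3 (0.16). Of the procollagen genes 8 (23.5%) were higher and 0 lower with 5-ASA, Serpinh1 at 0.28. The 5-ASA calls of Mmp3 and Serpinh1 were lost in TPM.

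Of 10 receptors for collagen 8 were tested, and 6 (75.0%) fell with OSCAR, including Ddr1 (-0.86), Itgb1 (-0.21) and Ddr2 (-0.16). The Itgb1 and Ddr2 calls were lost with library totals alone. Mrc2, which takes up collagen, had -0.03 (adjusted p = 0.644). With 5-ASA 5 were higher, among them Mrc2 and Ddr2 (0.26 each) and Ddr1 (0.23), and 1 was lower. All 3 of these calls were lost in TPM. That of Ddr1 was also lost with library totals alone (0.16), and without Ad-OSCAR culture 1 (0.23) or 3 (0.19) or 5-ASA culture 1 or 3 (0.18 each). Of 10 genes of hypertrophic cartilage other than Col10a1, 8 were tested and split with OSCAR into 3 (37.5%) that rose, Spp1 (1.97), Mmp13 (1.21) and Vegfa (0.67), and 5 (62.5%) that fell, of which Ibsp, a bone matrix protein, had -2.74. With 5-ASA Ibsp rose by 1.27 and Vegfa by 0.29, and 3 were higher and 1 lower in all. Col10a1, at -0.24 with OSCAR, lay between both groups of the list.

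The genes whose profiles over the 9 cultures lay nearest to each collagen were found by the Euclidean distance between log2 CPM, centred on the Control mean, among 13259 genes. The points share the 3 groups, so a small distance mainly reflects equal group differences. For Col2a1 the nearest candidates included Acox2 (0.569), Adamtsl3 (0.575), Anln (0.603) and Ankle1 (0.610), beside a median of 9.42 over all candidates. Acox2 and Adamtsl3 were also the nearest candidates to Col9a1. Susd5 and Meltf were nearest to Col9a2, Tgfbi and Loxl4 to Col9a3, Ppp1r3c (0.273) and Fmod (0.332) to Col11a1, and Slc6a6 and Pkd1 to Col10a1. Mki67 and Kcna6 were the nearest candidates to both Col11a2 and Col27a1, the 2 collagens that fell most.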

How the data were processed

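Reads of stranded mRNA libraries (2 × 100 bases) were aligned by the authors with STAR 2.7.1a to GRCm38 and quantified with RSEM 1.3.1, per the submitters' processing notes and methods. The authors deposited estimated counts per gene, which are not scaled and were rounded here, and TPM, scaled by transcript length and library, with a mean transcript length. Symbols and loci were taken from GENCODE M21.

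All 9 cultures entered 1 fit in edgeR 4.0.16 (R 4.3.3) with TMM, filterByExpr and group as the only factor. It left 15362 genes, and p-values were Benjamini-Hochberg adjusted over these. The coefficient of variation between cultures, as estimated by edgeR and possibly technical, was 5.11%. Standard errors were obtained by dividing each log2 fold change by the square root of its F. Single values were compared by exact permutation tests in scipy 1.17.1. The edgeR fit was also run on counts simulated from its own means and spreads, with 200 changed genes. That is far fewer than the 9983 called here with OSCAR, so the run does not check the fit under such broad change. The alternatives used DESeq2 1.42.0 and limma 3.58.1 among others.

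The genes and lists were chosen with earlier results of these data known. Named genes are the 8 collagens, the 4 most abundant tested genes of each list (mean CPM over all 9 cultures), Sox9, Sox5, Sox6, Acan, Mmp13 and Oscar, and the nearest profiles (5 for Col2a1, of which 1 is not reported here, and 2 for each other gene). Any further name was chosen after its values were seen. Of the matrix partners, Ecrg4 was not matched and Cilp and Cilp2 did not pass the filter. Other marker lists, as summed CPM in Control, Ad-OSCAR and 5-ASA cultures, were osteoblast (58.5 to 66.4, 10.5 to 15.3 and 24.4 to 26.2, Sost at 0), osteoclast (17.7 to 18.7, 18.4 to 18.8 and 17.4 to 18.7, Dcstamp at 0), adipocyte (11.0 to 14.8, 28.2 to 31.4 and 26.9 to 31.2) and endothelial (0.423 to 1.04, 2.09 to 2.80 and 1.35 to 1.79), and muscle (Myod1 at 0) and erythroid (Hbb-bs at 0) were at most 1.11. Fabp4 (12.5 CPM in Control and 29.9 in Ad-OSCAR) was the only adipocyte marker to pass the filter. Tek (0.598 and 2.22 CPM) was the only endothelial one. The even osteoclast sum hides opposite moves with OSCAR. Acp5 fell (log2 fold change -0.62), while Ctsk (0.59) and, from 0.0744 and 0.0137 CPM, Calcr (3.16) and Atp6v0d2 (6.40) rose.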

Additional observations from a re-analysis of the deposited data

How the results depend on the processing

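Under 9 alternatives and 9 fits without 1 culture, the log2 fold changes of the 8 collagens in 3 comparisons kept their side of the threshold in 419 of 432 values, and the other 13 lost the call. Called values kept their sign. With 5-ASA 4 collagens without a call took either sign, Col9a2 at -0.2432 to 0.0359, Col9a3 at -0.0739 to 0.1274, Col10a1 at -0.027 to 0.1324 and Col27a1 at -0.0832 to 0.243. With OSCAR, Col10a1 had -0.112 with library totals alone, -0.199 by limma on log2(TPM + 1) and -0.2104 on log2(TPM + 0.1). With 5-ASA, Col2a1 had 0.1805 and 0.1807 in the same TPM fits. Between 5-ASA and Control, Col10a1 had -0.1764 by DESeq2, -0.1138 with library totals alone, -0.1648 with only those 2 groups, and -0.2545 to -0.1061 without 1 culture. Library totals alone shifted the median of all genes to 0.149 with OSCAR (from 0.0225) and to -0.0753 with 5-ASA (from -0.0044). The TPM fits shifted it with 5-ASA to -0.0802 and -0.0972. The labels do not say whether the numbers 1 to 3 pair the cultures. Deviations of same-numbered cultures correlated at -0.0724 to 0.0402, which shows no strong shared effect but cannot settle a shared origin. With the replicate block, the calls over all genes went from 2732 to 2500 with 5-ASA, and Col11a1 had 0.571. The replicate block changed no collagen call. It ended those of Sox9 (adjusted p = 0.0509) and Sox6 (0.0567) with 5-ASA and added Mmp13 (0.0364).

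The median of the 8 collagens with 5-ASA was -0.0063 and -0.0068 in the TPM fits, so its sign reversed, and 0.0355 to 0.1812 without 1 culture, the highest without the second Ad-OSCAR culture. Against Control it was -3.3735 on log2(TPM + 1) and -3.4885 to -3.3488 without 1 culture. The median of the other collagens with OSCAR was -0.2193 by DESeq2, 0.1205 with library totals alone and -0.1284 (without the first Control culture) to 0.0579 without 1 culture. With 5-ASA it was 0.0704 and 0.0771 in the TPM fits. Between 5-ASA and Control it reversed to -0.0659 by DESeq2 and to -0.0696 and -0.071 in TPM, and was 0.1869 with library totals alone, 0.045 with no filter, 0.0463 with only those 2 groups and 0.0079 to 0.2258 without 1 Control culture. The cause of these shifts was not tested. As shares of TPM in place of counts, the differences were -1.3377 (OSCAR), 0.018119 (5-ASA) and -1.3196 percentage points (5-ASA against Control) for the 8 genes and -1.1293, 0.010461 and -1.1188 for Col2a1. From counts over a fixed effective length, the 5-ASA against Control difference was -9.1451 points for the Col9a1 share and 3.443 for the Col9a2 share of collagen IX, and collagen IX per 100 Col2a1 differed by 1.2763 (OSCAR) and 1.0689 (5-ASA against Control). Over the fits without 1 culture, 0 to 1 collagens passed the study's cut-off for 5-ASA when compared with untreated Ad-OSCAR. Against Control, the study's reference for that cut-off, 7 did. With 3 cultures a group, exact tests cannot go below 0.1. With 5-ASA the standard errors ran from 0.05 for Col11a1 to 0.10 for Col9a3, and Col27a1, with 244 to 326 counts after OSCAR, also had 0.10. The width did not follow the level in every gene, as Col10a1, lowest in Control TPM, had 0.07.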
